A study of Homo sapiens with 20 samples.

Results

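Heregulin (HRG) was set directly against epidermal growth factor (EGF) in SKBr3 cells, an established human breast cancer line with amplified ERBB2, that had received a control siRNA (siC). The comparison used 4 of the 20 arrays of the series, 2 of HRG-treated and 2 of EGF-treated cells, and every gene with a probe detected at p under 0.01 on both arrays of either group. These were 8420 genes of the 9592 detected by the same criterion in any of the 10 groups of the series. Per the labels both groups were deprived of serum, carried the siRNA for 60 h and received 100 µM of the ligand for 24 h, while the methods of the study give a shorter exposure, so the duration behind these values is not settled. Serum deprivation is given as 24 h in one label and 48 h in another. By label the groups differed only in the ligand. Starved siC cells without ligand (2 arrays) serve as a reference level. Cells that received an siRNA against the nuclear receptor ERRα (siERRα) and either ligand (2 arrays each) give the same contrast. They share no array with the siC contrast, though they enter the common estimate of the spread. Each sample of this single line was 1 array, and the labels do not say whether the replicates were separate cultures, so the p-values rest on the scatter of these samples alone, and that scatter may be technical.

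EGF binds EGFR, which pairs with itself or with ERBB2. HRG, a product of the NRG genes, binds ERBB3 or ERBB4, and ERBB3, whose own kinase is weak, signals through ERBB2 and recruits phosphatidylinositol 3-kinase (PI3K) through its many docking sites. Both routes reach RAS and the kinase ERK, which switches on immediate early genes such as EGR1 and the FOS and JUN families (the AP-1 factors), then genes that restrain ERK itself and, through AP-1, secreted and surface proteins.

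The sequences below are shown because the ERK-responsive gene lists had the lowest median differences between the ligands, and these 6 are the members of those lists whose promoters hold a letter match to the AP-1 motif or the CArG box. They cover the 250 bases before the gene start in the RefSeq promoter table of GRCh38.p14. EMP1 is at chr12:13196476-13196725 (+ strand), F3 at chr1:94541760-94542009 (- strand), PLAUR at chr19:43670170-43670419 (- strand), S100A3 at chr1:153549259-153549508 (- strand), EGR1 at chr5:138465229-138465478 (+ strand) and SRF at chr6:43171019-43171268 (+ strand). Capitals mark the AP-1 motif TGAGTCA, searched on both strands, in the first 4, and the CArG box, the element bound by the serum response factor, in EGR1 and in SRF, the gene of that factor.
EMP1: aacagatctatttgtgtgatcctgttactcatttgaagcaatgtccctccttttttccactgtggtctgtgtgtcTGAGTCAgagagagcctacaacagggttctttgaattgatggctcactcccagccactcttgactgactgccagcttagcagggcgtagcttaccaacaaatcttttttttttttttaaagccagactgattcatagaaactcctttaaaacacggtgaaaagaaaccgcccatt
F3: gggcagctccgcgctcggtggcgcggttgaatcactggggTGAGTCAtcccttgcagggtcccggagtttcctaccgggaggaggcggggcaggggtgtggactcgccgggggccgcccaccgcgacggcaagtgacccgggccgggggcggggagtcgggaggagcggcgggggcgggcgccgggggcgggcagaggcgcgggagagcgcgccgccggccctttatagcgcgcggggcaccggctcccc
PLAUR: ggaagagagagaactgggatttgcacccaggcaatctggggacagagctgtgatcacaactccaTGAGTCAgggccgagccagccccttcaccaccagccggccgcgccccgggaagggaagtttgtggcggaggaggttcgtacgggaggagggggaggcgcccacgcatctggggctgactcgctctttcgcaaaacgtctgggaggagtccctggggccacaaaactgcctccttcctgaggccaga
S100A3: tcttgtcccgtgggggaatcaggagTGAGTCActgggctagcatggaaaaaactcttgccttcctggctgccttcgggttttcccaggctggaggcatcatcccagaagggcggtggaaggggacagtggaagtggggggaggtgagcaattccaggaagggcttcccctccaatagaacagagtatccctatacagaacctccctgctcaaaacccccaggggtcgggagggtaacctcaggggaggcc
EGR1: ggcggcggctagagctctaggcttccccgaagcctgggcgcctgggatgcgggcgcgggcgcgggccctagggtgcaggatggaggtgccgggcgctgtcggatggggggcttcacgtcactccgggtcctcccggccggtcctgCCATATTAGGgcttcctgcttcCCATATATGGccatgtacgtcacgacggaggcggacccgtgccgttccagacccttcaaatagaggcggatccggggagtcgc
SRF: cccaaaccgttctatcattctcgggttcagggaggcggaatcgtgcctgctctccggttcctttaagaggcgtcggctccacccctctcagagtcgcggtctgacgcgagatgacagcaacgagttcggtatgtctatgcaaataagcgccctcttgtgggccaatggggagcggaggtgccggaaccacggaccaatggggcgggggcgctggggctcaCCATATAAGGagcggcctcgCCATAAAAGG
The AP-1 motif was present in 4.16% and the CArG box in 1.14% of the 27303 upstream stretches in the table, which include genes not measured here. Among the 6961 measured genes with such a stretch the shares were 2.5% and 1.03%. The cAMP response element TGACGTCA was present in 1.77% of all stretches and in 3.3% of those of measured genes. It was matched in DUSP1, DUSP8, JUND, MAFF and VGF, which are not printed. The members with a match did not all order the ligands alike: SRF had overlapping arrays and DUSP8 read higher with HRG. Promoters were found for 51 of the 68 measured members of the ERK-responsive lists, too few for a motif share over these lists, so that check is void and none is read from them. A match describes letters only and is no evidence of binding.

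With the spread estimated from all 20 arrays, no gene passed the test between HRG and EGF (limma, Benjamini-Hochberg adjusted p under 0.05 over 8420 genes). The background was thus 0%, the smallest adjusted p was 0.16, and 256 genes (3.04%) had an unadjusted p under 0.05, of which 153 (1.82%) read lower and 103 (1.22%) higher with HRG. One array, replicate 1 of siERRα cells given EGF, differed from every other array, with correlations of 0.830 to 0.875 against 0.933 to 0.990 among the remaining 19, and it widened the shared spread. Without that array, which is no part of the contrast, the median residual SD fell from 0.262 to 0.192 and 10 genes were called, 5 lower (0.0594%) and 5 higher (0.0594%) with HRG. The differences themselves are identical in both fits.

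Most of the transcriptome was bounded closely. The 95% interval of the difference lay within 2-fold in either direction for 6419 genes (76.2%) with 20 arrays and for 7592 (90.2%) with 19, with a median half-width of 0.55 and 0.41 on the log2 scale. The median difference over all genes was -0.00. Differences beyond 1 on the log2 scale numbered 36 below and 25 above. Across genes, which are not independent replicates, the EGF arrays correlated at 0.984 with each other and the HRG arrays at 0.982. EGF with HRG arrays correlated at 0.986 for the same replicate number and at 0.980 to 0.981 across numbers. Both HRG arrays read below both EGF arrays for 1241 genes (14.7%) and above them for 1180 (14%). A probe was detected on both EGF arrays and none on either HRG array for 119 genes, and the reverse held for 35. The HRG arrays had 13010 and 13716 detected probes and the EGF arrays 13993 and 13824, and the part of that gap in the counts was not tested. In bulk RNA of this kind, fewer cells that carry a transcript and less of it per cell cannot be told apart.

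IL24, a secreted cytokine of the interleukin-10 family, was called without the array that stands apart. Its log2 intensity was 8.55 and 7.76 with EGF, 6.23 and 5.52 with HRG and 4.53 and 4.59 in starved cells. The HRG arrays lay between the starved and the EGF arrays without overlap, and the probe was detected on 1 of the 2 HRG arrays, so the size of the difference rests in part on a reading not above background. IL24 was 4.86-fold lower with HRG (log2 difference -2.28, SE 0.32, adjusted p = 0.0272 by limma with 19 arrays, 0.319 with 20). A second IL24 probe gave -1.34, and the authors' normalized table -0.85 for the first.

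IER5, an immediate early gene, was measured far above background on every array. It read 10.997 and 11.09 with EGF, 9.95 and 10.17 with HRG and 8.66 and 8.78 in starved cells, so that both ligands stood above starved cells and HRG stood lower than EGF. The difference was 1.98-fold (log2 difference -0.98, SE 0.14, adjusted p = 0.0272 by limma with 19 arrays, 0.995 with 20). IL24 and IER5 are the genes called lower that belong to an ERK-responsive list. The other calls were SERPINE2, an inhibitor of extracellular serine proteases, CRISP2, a cysteine-rich secretory protein of the testis, and PPP1R1C, an inhibitor subunit of protein phosphatase 1. All their probes were below detection on both HRG arrays. SERPINE2 was therefore at least 1.16-fold lower with HRG (6.36 and 5.76 against 5.17 and 4.53, adjusted p = 0.0458 with 19 arrays). CRISP2 was at least 1.48-fold lower (6.44 and 6.38 against 4.67 and 4.82, adjusted p = 0.0272). PPP1R1C was at least 1.21-fold lower (5.74 and 6.50 against 4.72 and 4.77, adjusted p = 0.0272). Of the 10 calls, 6 were of such genes, which passed the detection filter only through the group where they read high, so their adjusted p-values rest on readings below background and the bounds are the measurement. These bounds set the EGF mean against the higher of the dim probe's own level and the lowest detected level on that array, which was 5.71 to 5.93 on the 4 arrays.

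Bright genes among those with the smallest p-values showed the same order of groups as IER5. TM4SF1, a surface protein of the transmembrane 4 family, read 12.45 and 12.30 with EGF, 11.54 and 11.66 with HRG and 10.78 and 10.74 in starved cells. Its log2 difference was -0.77 (SE 0.14, adjusted p = 0.0596 by limma with 19 arrays, 0.341 with 20). PPP1R15A (GADD34), which directs a phosphatase to the initiation factor eIF2α, read 11.65 and 11.36 with EGF, 10.64 and 10.74 with HRG and 9.15 and 9.07 in starved cells, a log2 difference of -0.81 (SE 0.18, adjusted p = 0.161 and 0.435). In both, the HRG arrays lay apart from both other groups. BST2, the antiviral membrane protein tetherin, differed in order: it read 7.80 and 7.20 with EGF and 6.16 and 6.62 with HRG, below the 7.02 and 7.0 of starved cells (log2 difference -1.12, SE 0.21, adjusted p = 0.084 and 0.341).

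The remaining leading genes were dim. Of the 14 genes lower with HRG that were called or had the smallest p-values, 9 had every probe below detection on both HRG arrays, with bounds of 1.01-fold to 1.64-fold. They include SOX8, a SOX transcription factor (at least 1.25-fold), DUSP15, a dual-specificity phosphatase (at least 1.25-fold), and FSHB, the beta chain of follicle-stimulating hormone (at least 1.01-fold). A probe annotated to MIR1229, which does not measure the mature microRNA, gave at least 1.64-fold. SSUH2 had a bound of 1.32-fold and PCDHGA9, a protocadherin, of 1.07-fold. In all 14 of these genes both EGF arrays stood above both starved arrays, and since the EGF arrays enter both readings this is a description only.

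In the opposite direction, IQCC, a protein with a calmodulin-binding IQ motif, read 7.92 and 8.13 with HRG, 7.04 and 7.25 with EGF and 7.72 and 7.90 in starved cells. IQCC and MYORG were the genes called higher that were detected on all 4 arrays. The IQCC difference was 1.84-fold (log2 difference 0.88, SE 0.14, adjusted p = 0.0272 by limma with 19 arrays, 0.195 with 20). MYORG, a glycosidase of the endoplasmic reticulum, read 7.29 and 7.25 with HRG, 6.21 and 6.07 with EGF and 6.53 and 6.19 in starved cells (1.13, SE 0.17, adjusted p = 0.0272 and 0.546). The HRG arrays lay above the starved arrays in both genes, and the EGF arrays lay below them in IQCC. In the authors' normalized table the differences were smaller, 0.39 for IQCC and 0.36 for MYORG.

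The other genes called higher were undetected on both EGF arrays. SLC12A8, a transporter of the cation-chloride cotransporter family, was at least 1.67-fold higher with HRG (6.51 and 6.41 against 5.64 and 5.46, adjusted p = 0.0272 with 19 arrays). MZT2B, a subunit of the γ-tubulin ring complex, was at least 1.66-fold higher (6.61 and 6.30 against 5.01 and 5.07, adjusted p = 0.0458). GBF1, an exchange factor for ARF GTPases at the Golgi, was at least 1.36-fold higher (6.17 and 6.18 against 5.02 and 5.22, adjusted p = 0.0458). Its call needs the 19 arrays, since GBF1 read 8.14 on the array that stands apart and 6.03 on that array's own replicate.

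JDP2, a repressor of AP-1, gave a graded value without passing the test. JDP2 read 8.19 and 8.34 in starved cells, 7.51 and 7.51 with HRG and 6.77 and 6.84 with EGF (log2 difference 0.71, SE 0.15, adjusted p = 0.16 by limma with 19 arrays and 0.435 with 20). Its 3 groups of arrays did not overlap, in the reverse order of IER5. TGM1, the epidermal transglutaminase, read 8.28 and 8.32 with HRG and 7.34 and 7.60 with EGF, and CEP295, a centriole protein, 7.63 and 7.28 against 6.61 and 6.56. RIC8B, a chaperone of G protein α subunits, read 7.20 and 7.71 against 6.64 and 6.14. None of these 3 had overlapping EGF and HRG arrays. For 11 of the 14 leading genes higher with HRG, both EGF arrays lay below both starved arrays, again with the EGF arrays in both readings. The dim genes among them were MYOZ1, a sarcomere protein (at least 1.57-fold), S100A1, a calcium-binding protein (at least 1.66-fold), IPCEF1 (at least 1.47-fold), ROPN1B, a sperm protein (at least 1.31-fold), and H2BC18, a histone H2B gene whose probe may share sequence with its close copies (6.43 and 6.52 against 5.73 and 5.12).

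**Figure D1:**
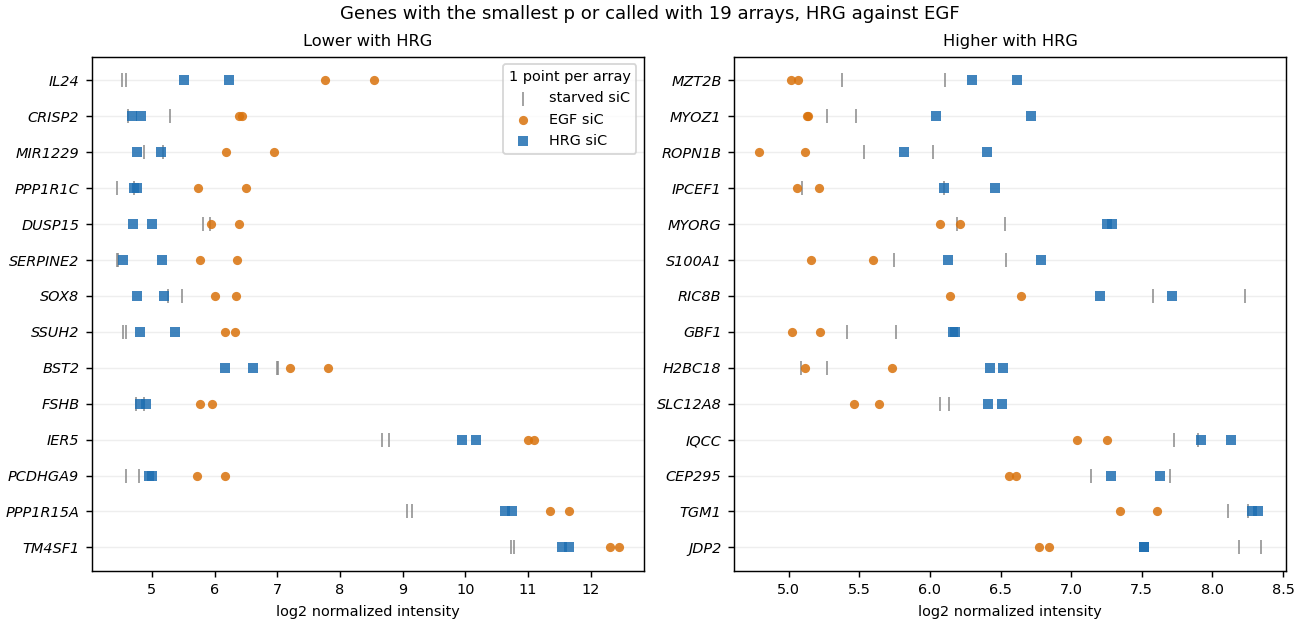
Log2 normalized intensity (horizontal axis) on each array of siC cells for the 14 genes in each direction that were called with 19 arrays or had the smallest p-values; circles are EGF, squares HRG and ticks starved arrays. In IL24, IER5, PPP1R15A and TM4SF1 the squares lie between the ticks and the circles, and many other genes lie near the lowest detected level of 5.71 to 5.93.

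The ERK-responsive lists had the lowest medians among lists with at least 5 measured genes. The 3 lists were read together, immediate early transcription factors, ERK feedback genes with the ETV factors, and late targets of AP-1 and ERK, of which 68 of 96 genes were measured. Of these, 56 had a negative difference and 12 a positive one, with a median of -0.33 on the log2 scale against -0.00 over all genes. Both HRG arrays lay below both EGF arrays for 31 members (45.6%, against 14.7% of all genes) and above them for 5 (7.35%, against 14%). At an unadjusted p under 0.05, 17 members read lower and 0 higher, against 1.82% and 1.22% of all genes, and 2 were called with 19 arrays. For 30 members (44.1%, against 4.71% of all genes) the HRG arrays lay above both starved and below both EGF arrays. The 351 genes called higher with EGF over starved cells (limma, 20 arrays) had a median of -0.26. The 205 called higher with HRG had -0.13. The ligand arrays enter both readings of those genes. Whether the lower HRG reading is particular to the lists, which were chosen with earlier results known, was not tested.

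Against starved cells, 41 of the 68 members rose with EGF (limma, 20 arrays; background 4.17% of genes higher and 1.84% lower) and 25 rose with HRG (background 2.43% and 1.03%), and 0 fell with either. These counts share the starved arrays, so they stand side by side only. The median of the 68 members was 1.53 above starved cells with EGF and 1.06 with HRG. Of the cell line's own markers, 9 of the 10 luminal ERBB2-amplified markers were detected on all 4 arrays, with CDH1 undetected. Of 15 leukocyte markers 1 (CD68) and of 14 fibroblast and endothelial markers 2 (CDH5 and ACTA2) were detected on all 4 arrays. On no array were 9 and 11 of these markers detected, PTPRC, COL1A1 and PECAM1 among them. The summed linear level of the luminal markers was 65897 and 61192 with EGF and 64012 and 62017 with HRG. For the leukocyte list it was 723 and 735 with EGF and 729 and 856 with HRG, and for the stromal list 1873 and 1090 with EGF and 2180 and 1216 with HRG, higher with HRG within each replicate number and overlapping between the groups. CDH5, the cadherin of endothelial cells, moved with the rise of the ERK-responsive genes over starved cells: it read 7.22 and 6.39 in starved cells, 9.59 and 8.90 with EGF and 9.64 and 8.87 with HRG (adjusted p = 0.00449 and 0.00789 over starved cells by limma). Its part in those counts was not tested.

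Among the immediate early transcription factors, 18 of the 21 measured genes had negative differences, with a median of -0.26. EGR1, a zinc-finger factor switched on directly by ERK and the serum response factor, and the gene of the CArG boxes shown above, read 9.50 and 9.92 with EGF, 8.64 and 8.92 with HRG and 7.53 and 7.32 in starved cells (log2 difference -0.93, SE 0.30, unadjusted p = 0.00923 by limma, adjusted p = 1). KLF6, a Krüppel-like factor, read 11.22 and 10.50 with EGF and 10.41 and 9.98 with HRG, a difference of -0.67 (SE 0.29). The ranges of both genes did not overlap. JUN and SRF, by contrast, had values with overlapping arrays. JUN read 9.75 and 9.84 with EGF and 9.84 and 9.63 with HRG, and SRF 11.38 and 11.67 against 11.36 and 11.50. Their 95% intervals with 20 arrays were -0.64 to 0.53 and -0.43 to 0.25, and both rose over starved cells with each ligand. FOSL2, an AP-1 subunit, read higher with HRG, at 7.83 and 7.71 against 7.25 and 7.55 (log2 difference 0.37, SE 0.26). JUN, SRF and FOSL2 were chosen after their values were seen, as members that did not follow the list.

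Feedback genes of the pathway gave 18 negative differences among 22 measured, with a median of -0.30, and 13 of the 22 (59.1%, against 14.7% of all genes) had both HRG arrays below both EGF arrays and 3 (13.6%, against 14%) above them. PHLDA1, a protein with a pleckstrin-homology-like domain that growth factors induce, read 10.55 and 10.71 with EGF, 8.95 and 9.87 with HRG and 4.63 and 4.85 in starved cells. Its log2 difference was -1.22 (SE 0.42, unadjusted p = 0.0115 by limma, adjusted p = 1), and a second probe gave -0.29. ERRFI1, an inhibitor that binds the EGFR kinase, read 12.09 and 12.20 with EGF, 11.27 and 11.71 with HRG and 8.59 and 8.84 in starved cells (-0.66, SE 0.28). In both genes the HRG arrays lay below both EGF arrays and far above both starved arrays.

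The phosphatase genes of the list split, with 3 of 6 in the order of IER5. DUSP1 read 11.16 and 10.40 with EGF and 10.19 and 9.54 with HRG (-0.92, SE 0.33). DUSP5, a nuclear phosphatase of ERK named here after its values were seen, read 10.08 and 9.78 against 9.37 and 9.15 (-0.67, SE 0.34). DUSP14 read 11.01 and 10.99 against 10.55 and 10.66 (-0.39, SE 0.17). In none of these did the EGF and HRG arrays overlap. The other phosphatase genes, also named after their values were seen, did not follow them. DUSP16 read 6.49 and 6.67 with EGF and 6.71 and 6.96 with HRG (0.25, SE 0.18), and DUSP8 5.91 and 5.42 against 6.28 and 6.34 (0.65, SE 0.38), both higher with HRG on both arrays, with DUSP8 detected on 1 of the 2 EGF arrays. DUSP4 read 9.18 and 9.49 against 8.73 and 9.66, with overlap. RGS2, which speeds GTP hydrolysis by Gq proteins, read 7.94 and 6.598 against 5.50 and 5.79 (-1.62, SE 0.68), and its EGF arrays differed from each other by nearly as much. RGS2 was detected on 1 of the 2 HRG arrays, so this size rests in part on a reading not above background. SPRY2, a Sprouty inhibitor of RAS signalling also singled out afterwards, read 7.27 and 7.17 with EGF and 7.19 and 7.31 with HRG, with an interval of -0.48 to 0.53.

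Late targets of AP-1 and ERK had the lowest median of the lists with at least 5 measured genes, -0.48, with 20 negative differences among 25 measured genes. Both HRG arrays lay below both EGF arrays for 10 (40%, against 14.7% of all genes) and above them for 0 (against 14%). ADM, the vasodilator peptide adrenomedullin, read 12.25 and 12.16 with EGF, 11.42 and 11.38 with HRG and 8.95 and 8.53 in starved cells (log2 difference -0.81, SE 0.20, unadjusted p = 0.00129 by limma, adjusted p = 0.453). LIF, a cytokine of the interleukin-6 family, read 7.83 and 8.42 with EGF, 7.02 and 7.52 with HRG and 5.74 and 4.93 in starved cells (-0.86, SE 0.26). EMP1, an epithelial membrane protein, read 9.90 and 9.58 with EGF and 9.22 and 8.90 with HRG, against 8.83 and 8.79 in starved cells (-0.68, SE 0.23). In EMP1 the lower HRG array was close to the starved level, whereas those of ADM and LIF lay well above it.

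The other late targets with a printed promoter, chosen for their motif, had HRG arrays below both EGF arrays with the probe used. F3, tissue factor, which starts coagulation, read 9.83 and 9.47 with EGF and 9.02 and 8.91 with HRG (-0.69, SE 0.33), while its second probe gave -0.18. PLAUR, the receptor of urokinase, read 9.44 and 9.74 against 9.04 and 9.26 (-0.44, SE 0.54), with 0.04 and -0.43 for its other probes. S100A3, a calcium-binding protein, read 10.31 and 10.36 against 9.78 and 9.92 (-0.48, SE 0.20). An exception among late targets was DKK1, a secreted WNT inhibitor, which read 9.71 and 9.25 with EGF and 9.97 and 9.64 with HRG (0.32, SE 0.27). DKK1 rose over starved cells, at 7.33 and 7.11, with each ligand (adjusted p = 0.000307 with EGF and 0.000216 with HRG by limma). It was named after its values were seen.

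**Figure D2:**
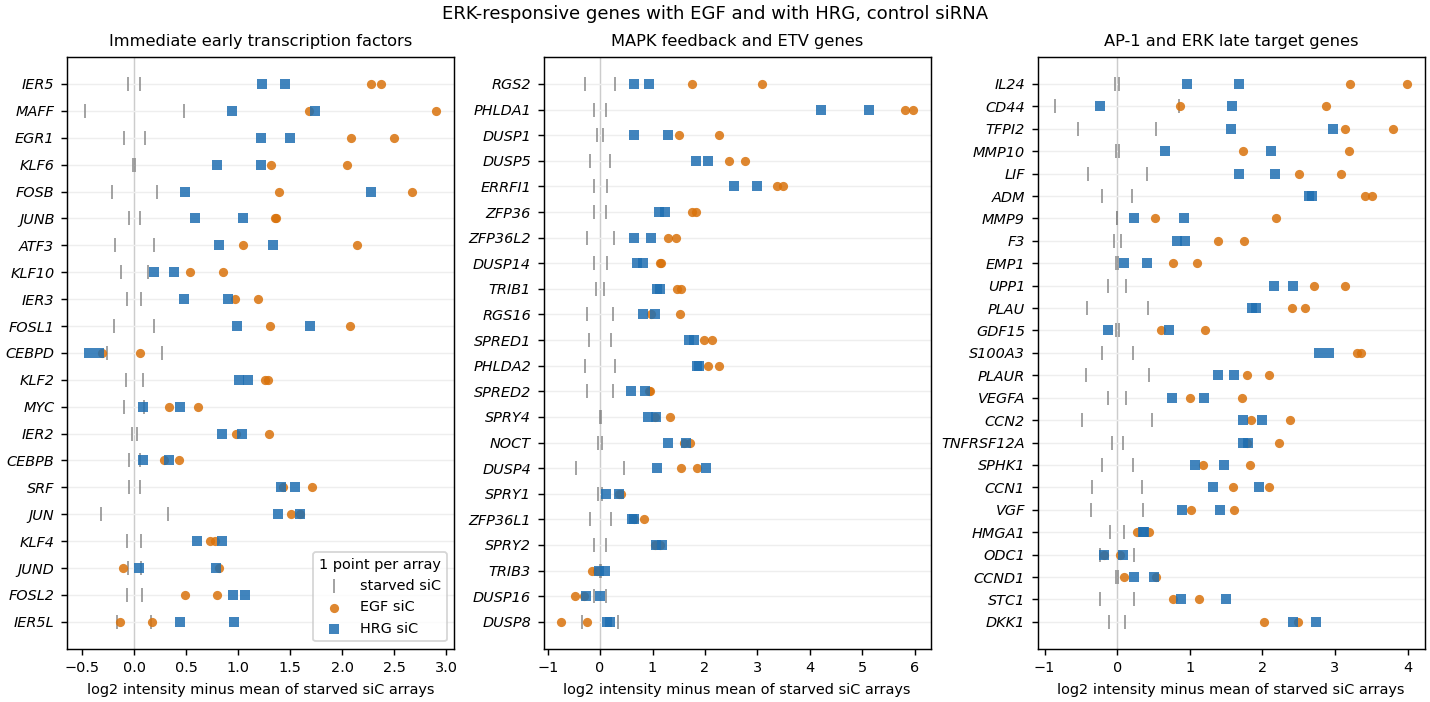
Log2 intensity minus the mean of the starved siC arrays (horizontal axis) for each measured member of the 3 ERK-responsive lists, 1 point per array, ordered by the HRG minus EGF difference. In 30 of the 68 genes both HRG squares lie between the starved ticks and the EGF circles, while JUN, SRF, SPRY2 and DKK1 show HRG at the EGF level or above it.

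The receptor transcripts showed small differences between the ligands. ERBB2 read 14.01 and 14.05 with EGF and 14.09 and 14.10 with HRG, with a log2 difference of 0.06 and a 95% interval of -0.32 to 0.45. EGFR read 9.40 and 9.04 with EGF and 9.18 and 8.82 with HRG (-0.22, interval -0.65 to 0.21), and a second probe gave -0.33. ERBB3 read 9.13 and 9.63 against 9.35 and 9.70 (0.14, interval -0.54 to 0.83), and its second probe gave -0.11, so its direction is not settled. All 3 receptors are therefore bounded within 2-fold with 20 arrays. HBEGF, a ligand of EGFR that is shed from the cell surface, read 7.62 and 8.04 with EGF, 7.73 and 8.26 with HRG and 5.50 and 6.07 in starved cells. It rose with each ligand (adjusted p = 0.00026 and 0.000282 by limma) and its difference between them was 0.17 (interval -0.35 to 0.69). The transcript of EGF itself was dim, at 5.59 and 5.84 with EGF and 6.49 and 5.96 with HRG (0.51, interval -0.13 to 1.15). Of the 15 receptor and ligand genes listed, these 5 were measured.

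Genes that remove or silence the receptors had a median of -0.12 over 17 measured members, 12 of them negative. SOCS2, a suppressor of cytokine signalling, read 7.94 and 6.93 with EGF and 6.69 and 6.15 with HRG (-1.01, SE 0.34). LRIG1, a membrane protein that lowers ERBB receptor levels, read 7.29 and 7.11 with EGF, 7.52 and 7.48 with HRG and 7.98 and 7.88 in starved cells (0.30, interval -0.08 to 0.68), though a second probe gave -0.11.

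Inflammatory ligands split. IL1RL1, the receptor of interleukin-33, read 10.34 and 9.34 with EGF, 8.70 and 7.83 with HRG and 5.54 and 4.79 in starved cells (log2 difference -1.57, SE 0.39, unadjusted p = 0.00124 by limma, adjusted p = 0.453), with -1.64 for its second probe. CCL20, a chemokine of epithelial cells, read 7.75 and 7.995 with EGF and 7.495 and 6.48 with HRG (-0.88, SE 0.33). TNF read 8.51 and 8.49 with EGF and 9.07 and 8.58 with HRG, above EGF on both arrays, with a difference of 0.33 (interval -0.23 to 0.88). Over the 17 measured cytokine and NF-κB genes the median was -0.10, with 12 negative. ITGA5, the α chain of the fibronectin receptor, stood out among the 18 integrin, laminin and adhesion genes (median -0.06): it read 8.92 and 8.47 with EGF, 7.68 and 7.57 with HRG and 5.91 and 5.79 in starved cells (-1.07, SE 0.32, unadjusted p = 0.00555, adjusted p = 0.989).

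The p53 target list had a median of -0.24 over 13 measured genes, 8 of them negative. CDKN1A, the cyclin-dependent kinase inhibitor p21, read 12.61 and 12.48 with EGF, 12.001 and 12.10 with HRG and 9.55 and 9.87 in starved cells (-0.49, SE 0.17). TNFRSF10A, a TRAIL receptor, read 8.76 and 8.79 against 8.42 and 8.21 (-0.46, SE 0.16). BTG1, an antiproliferative factor, read 11.14 and 10.93 with EGF and 10.64 and 10.43 with HRG, with starved cells at 10.99 and 10.52 (-0.50, SE 0.22). Each had non-overlapping arrays, and none passed the adjusted test. The interferon-stimulated list, with a median of -0.16 over 16 genes, was led by BST2, followed by IRF9, a subunit of the interferon-response factor ISGF3, which read 8.72 and 7.93 with EGF and 8.01 and 7.01 with HRG. OAS1, an antiviral synthetase, read 6.31 and 7.17 against 6.14 and 6.38, a difference of -0.47, and its other probe gave -1.07.

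Targets of the FOXO factors, which PI3K and AKT hold in check, had a median of -0.09 over 17 measured genes, 13 of them negative. Both HRG arrays lay below both EGF arrays for 2 (11.8%, against 14.7% of all genes) and above them for 2 (11.8%, against 14%). Intervals lay within 2-fold for 14, against 76.2% of all genes. PIK3IP1, an inhibitor of PI3K, read 7.51 and 7.67 with EGF, 7.89 and 7.91 with HRG and 8.42 and 8.26 in starved cells (0.30, interval -0.20 to 0.81). ARRDC3, an α-arrestin, was undetected on both HRG arrays and at least 1.31-fold lower (6.10 and 6.38 against 4.93 and 5.44, unadjusted p = 0.0347 by limma, adjusted p = 1). HBP1, a repressor of cell-cycle genes, read 7.01 and 8.04 with EGF and 7.08 and 7.06 with HRG, with overlap, and a second probe gave -0.84 (unadjusted p = 0.00992 by limma). With each ligand 0 members of the list rose over starved cells, against 4.17% of all genes with EGF and 2.43% with HRG. With each ligand 6 fell, against 1.84% of all genes with EGF and 1.03% with HRG (limma, 20 arrays). ID2, an inhibitor of helix-loop-helix factors, read 8.99 and 9.08 in starved cells, 7.26 and 7.20 with HRG and 6.36 and 6.63 with EGF (log2 difference 0.73, SE 0.33), and a second probe gave 0.47. ID3 read 12.67 and 12.38 with HRG and 12.16 and 12.16 with EGF (0.37, SE 0.16). ID1 went the other way without overlap, at 7.98 and 7.38 with EGF and 7.26 and 7.28 with HRG (-0.41, SE 0.22). Over the 15 measured genes of the ID and BMP feedback list the median was 0.08. Both HRG arrays lay above both EGF arrays for 2 (13.3%, against 14% of all genes) and below them for 1 (6.67%, against 14.7%).

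Of 39 measured members of the DNA replication and G1/S list, 28 had positive differences, with a median of 0.09 that was smaller than the SD of the list's array medians within groups, 0.14. Of these members 9 (23.1%, against 14% of all genes) had both HRG arrays above both EGF arrays. In 7 (17.9%, against 3.99% of all genes) HRG lay between EGF and starved cells, with EGF lowest. CHAF1A, the large subunit of the chromatin assembly factor that follows the replication fork, read 6.74 and 6.85 with HRG, 6.02 and 5.88 with EGF and 7.07 and 7.29 in starved cells (0.84, SE 0.22, unadjusted p = 0.00233 by limma, adjusted p = 0.546). E2F1, the factor that drives entry into S phase, read 7.13 and 6.88 against 6.01 and 6.57 (0.71, SE 0.40). The mitosis list had a median of 0.02 over 46 genes. The epithelial-mesenchymal transition list had the highest median, 0.33, over only 5 measured genes, 3 positive and 2 negative. The SD of its array medians within groups was 0.26. GRHL2, an epithelial transcription factor, read 6.33 and 6.20 with HRG and 5.78 and 5.65 with EGF, where it was detected on 1 of 2 arrays (0.55, SE 0.32), and VIM, vimentin, 6.76 and 6.43 against 7.002 and 7.24 (-0.53, SE 0.31). None of its members was called.

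Metabolic lists, which are the interest of the study that made these data, had medians near that of all genes. The 67 measured subunits of the respiratory complexes had a median of 0.01, and for 63 of them the interval lay within 2-fold with 20 arrays. For the TCA cycle and pyruvate list the median was 0.01 over 27 genes, 26 of them within 2-fold, and for glycolysis it was 0.00 over 24 genes. PFKFB3, the enzyme that makes the activator of phosphofructokinase, departed from its list, at 11.89 and 11.82 with EGF, 11.10 and 11.25 with HRG and 9.85 and 9.60 in starved cells (-0.68, SE 0.26). In the cholesterol synthesis list 14 of 19 genes had positive differences, with a median of 0.12. That was smaller than the SD of the list's array medians within groups, 0.21. Of its members 3 (15.8%, near the 14% of all genes) had both HRG arrays above. DGAT2, the last enzyme of triglyceride synthesis, belongs to the milk lipid list, whose median was -0.00 over 19 measured genes. DGAT2 read 6.30 and 6.89 with HRG and 5.91 and 4.63 with EGF (1.33, SE 0.48, unadjusted p = 0.0152 by limma, adjusted p = 1). It lay near the lowest detected level and was detected on 1 of the 2 EGF arrays. The size of its difference thus rests in part on a reading not above background. ESRRA, the gene of ERRα, read 8.98 and 9.03 with EGF and 8.54 and 8.80 with HRG (-0.34, interval -0.99 to 0.31).

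**Figure D3:**
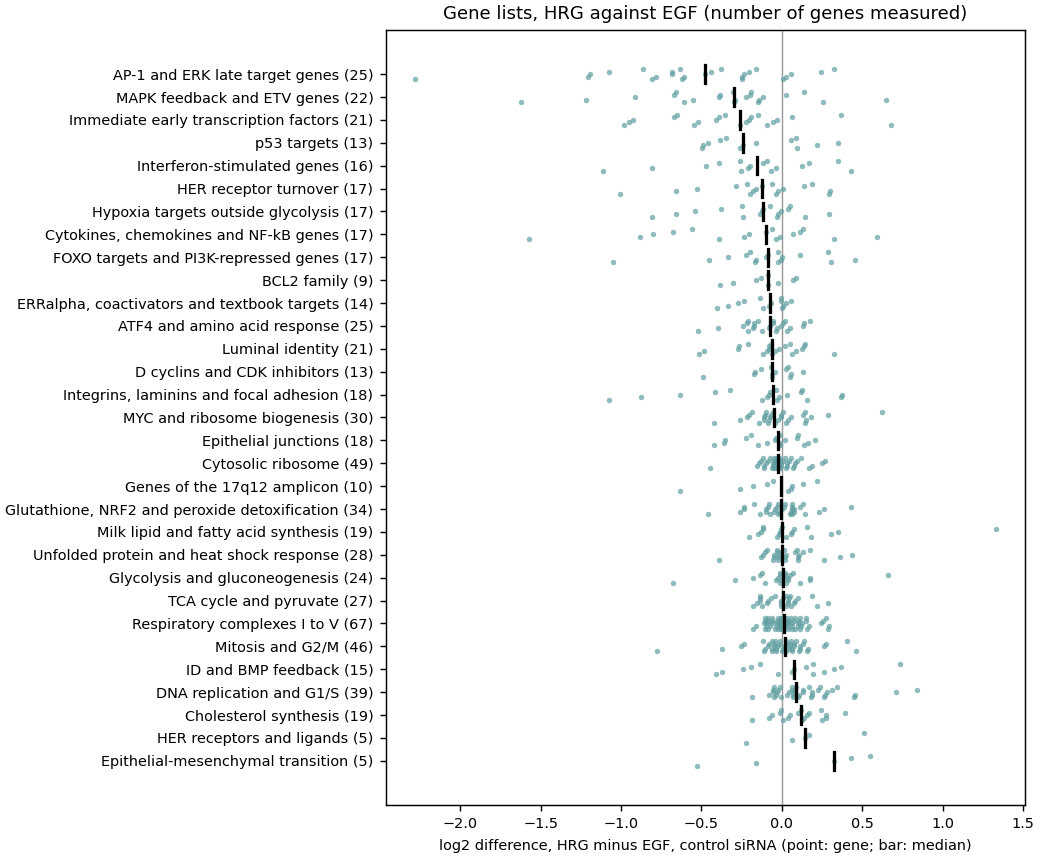
Log2 difference HRG minus EGF in siC cells (horizontal axis) for every measured member of the lists with at least 5 measured genes; a point is a gene and a bar the list median. The 3 ERK-responsive lists have the lowest medians, -0.48, -0.30 and -0.26, the epithelial-mesenchymal transition list has the highest, 0.33, and the respiratory complexes are centred on 0.01.

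The siERRα arrays hold the same contrast in cells that share no array with the siC contrast. With 20 arrays no gene was called there (0%, with 1832 genes at an unadjusted p under 0.05), and with the 19 that leave EGF-treated siERRα cells with 1 array, assumed to vary like the other groups, 1 gene was called (0.0119%, with 511 at an unadjusted p under 0.05). That gene, named here as the only call, was GDPD4, a glycerophosphodiester phosphodiesterase, with 6.61 on the EGF array kept and 5.44 and 5.50 on the HRG arrays, where it was not detected. GDPD4 was thus at least 1.85-fold lower with HRG there (adjusted p = 0.0445 by limma). The difference between the siERRα and the siC contrast was called for 0 genes with 20 arrays and 0 with 19 (limma), with 590 and 401 genes at an unadjusted p under 0.05.

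With the 19 arrays, 113 of the 153 genes that read lower with HRG at an unadjusted p under 0.05 in siC cells also had a negative difference in siERRα cells (73.9%, against 48.0% of all genes), with a median of -0.29. Of the 103 genes that read higher, 55 had a positive difference (53.4%, against 52.0% of all genes), with a median of 0.03. With 20 arrays the shares were 78.4% against 56.3% and 48.5% against 43.7%. Genes that read lower with HRG thus kept their sign in the second set of arrays more often than genes in general, whereas those that read higher did so about as often as any gene.

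Several genes described above were read there too. In siERRα cells with 19 arrays the log2 difference was -0.77 (SE 0.17) for IER5, -0.82 (SE 0.17) for TM4SF1, -1.16 (SE 0.23) for ADM, -1.29 (SE 0.34) for EGR1 and -1.13 (SE 0.44) for PHLDA1. IL24 read 7.39 with EGF (8.89 on the array that stands apart) and was undetected with HRG, at 5.67 and 4.61, which gives at least 3.19-fold lower. IER5 read 10.94 with EGF (9.60 on that array) and 10.17 and 10.17 with HRG, so for IER5 the array that stands apart falls on the other side. Over the 68 members of the 3 lists, 55 were negative and the median was -0.34. ITGA5 had -0.06 (SE 0.27) and BST2 0.19 (SE 0.26). Of the genes called higher, MYORG had 0.51 (SE 0.21), SLC12A8 0.02 (SE 0.17), and IQCC -0.18 (SE 0.17). GBF1, detected on the EGF array kept and on 1 of the 2 HRG arrays, had -0.30 (SE 0.22). MZT2B was detected on none of the arrays kept. The same held for CRISP2, PPP1R1C and SERPINE2 among the genes called lower, so these could not be compared there. Of the 12 genes higher with HRG in siC cells with the smallest p-values, 8 had a negative difference there, against 48.0% of all genes. Of the 12 lower, 10 did. Both sets hold readings below background. IPCEF1, undetected with HRG there, was at least 1.67-fold higher with EGF. The replication list had a median of -0.03 with 22 of 39 negative, and the cholesterol list 0.21 with 5 of 19 negative. For the respiratory complexes the median was -0.09, with 57 of 67 negative against 48.0% of all genes. With 20 arrays the respiratory median was 0.05, with 31 of 67 negative against 56.3% of all genes. The cholesterol median was then -0.09, with 12 of 19 negative, and the replication median -0.11, with 23 of 39 negative. The direction of the respiratory and cholesterol lists thus depends on the array that stands apart.

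**Figure D4:**
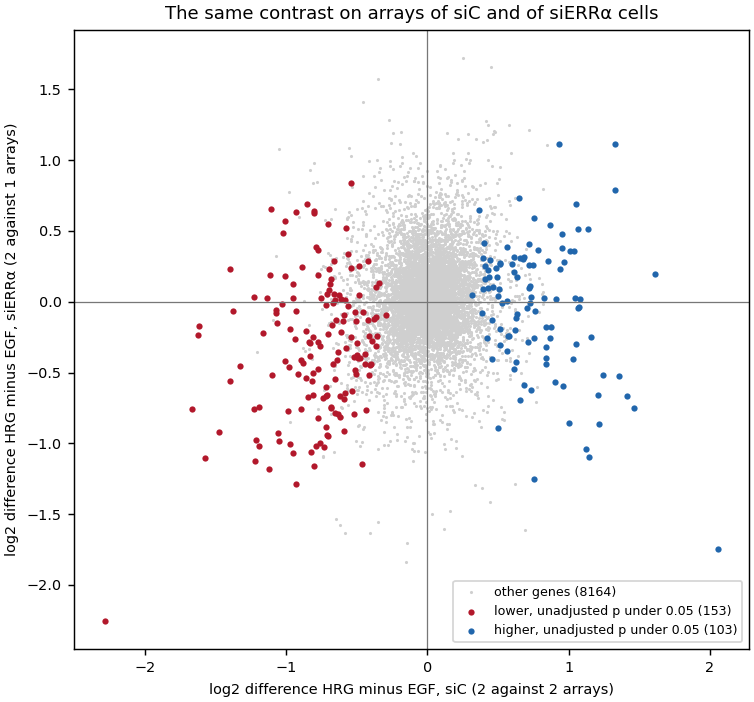
Log2 difference HRG minus EGF in siC cells (horizontal axis, 2 against 2 arrays) and in siERRα cells (vertical axis, 2 HRG arrays against 1 EGF array); a point is a gene. Of the 153 red genes, lower in siC cells at an unadjusted p under 0.05, 113 lie below 0 on the vertical axis, and of the 103 blue genes 55 lie above it.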

How the data were processed

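RNA of SKBr3 cells was hybridised to Illumina HumanHT-12 v4 BeadChips, 20 arrays in 10 groups of 2. The authors deposited bead-summarised intensity values without normalization and, per the file headers, a detection p-value for each probe, together with a log2 table that the authors normalized with lumi in FlexArray, whose transform is not given in the sources used here and was read from its values. For testing, the authors used SAM and Student's t-test.

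Here, raw values were corrected for background with normexp from the detection p-values (offset 16), quantile normalized and taken to log2 with neqc of limma 3.58.1 in R 4.3.3. Of 47323 probes, 30113 had 1 gene symbol, 8 several and 17202 none, and 30074 were matched by Entrez number. Each gene was read from its probe of highest mean intensity among those detected. Detected probes numbered 12151 to 15177 per array, and median raw intensity was 121 to 140. The number of arrays limits the precision. A model with the 10 group means was fitted to all 20 arrays, with empirical Bayes moderation and Benjamini-Hochberg adjustment over 8420 genes, and again to 19 arrays. The procedure was tested on simulated data.

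The genes, the 33 gene lists and the 19-array fit were chosen with earlier results of these data known. Named genes were those called in either fit, the 12 per direction with the smallest p-values among genes without overlap, the detected receptor and ligand genes, up to 4 members per other list, and ESRRA. Others are marked as chosen after their values were seen. Alternatives covered the arrays fitted, weights, background, normalization, detection filter, probes, test and replicates.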

Additional observations from a re-analysis of the deposited data

How the results depend on the processing

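Between HRG and EGF in siC cells, 0 genes were called in 14 of the 19 alternatives. The others gave 10 calls with 19 arrays, 8 with array quality weights, 1 with the mean of all detected probes (IL24), and 0 to 1 when each of the 4 arrays was left out in turn (PPP1R1C without EGF siC replicate 1). The methods' t-test called 0 after Benjamini-Hochberg adjustment and 357 genes at an unadjusted p under 0.05. With 19 arrays, calls over starved cells went from 506 to 1151 for EGF and from 292 to 747 for HRG, and calls in siERRα cells from 0 to 1. The replicate number as a block gave 0 calls between HRG and EGF in siC cells with 20 arrays, 1 in siERRα cells, and 14 in siC cells with 19 arrays, a setting chosen after seeing the data. The labels do not say what the numbers mark and each contrast holds only 2 pairs, so pairing is not established. Same-numbered EGF and HRG arrays correlated at 0.986 and 0.986 over genes, the crossed pairs at 0.980 and 0.981, and replicate 1 minus 2 had an SD over genes of 0.301 against 0.255 for HRG minus EGF. Deviations of same-numbered EGF and HRG arrays correlated at 0.359 over genes, and between groups at -0.102 to 0.359. The median of the 3 ERK-responsive lists was -0.26 without background correction, -0.27 with offset 50, -0.24 in the authors' normalized table, -0.28 with no filter and -0.38 with a detection p under 0.05, and ran from -0.38 to -0.30 when arrays were left out. The named genes kept their sign in every alternative except 8, each when 1 array was left out. Much of this was fixed in advance. Other arrays in the fit, weights, the block and the t-test leave the difference itself unchanged. Genes picked for arrays without overlap cannot change sign when 1 array is left out. Leaving out each of the 4 arrays in turn, the difference ran from -0.10 to 0.39 for ERBB3, -0.10 to 0.43 for HBEGF, -0.97 to 0.065 for HBP1, -0.032 to 0.086 for SPRY2, -0.16 to 0.050 for JUN, -0.23 to 0.053 for SRF, -0.61 to 0.32 for DUSP4 and -0.37 to 0.40 for CDH5. The negative ERBB3 and HBEGF values came without HRG siC replicate 2 and without EGF siC replicate 1. Sizes near background moved by over 1.5 times over all alternatives, which include leaving out an array. IL24 ran from -2.67 to -0.85, CRISP2 from -1.74 to -0.30 and PPP1R1C from -1.76 to -0.24. SERPINE2 ran from -1.53 to -0.20, RGS2 from -2.30 to -0.50 and SLC12A8 from 0.21 to 1.00. GBF1 ran from 0.20 to 1.15 and MZT2B from 0.29 to 1.57. IQCC, from 0.39 to 0.98, and MYORG, from 0.36 to 1.20, moved by that much too, though detected on all 4 arrays. IER5 ran from -1.10 to -0.87 and TM4SF1 from -0.85 to -0.70. The cause of these shifts was not tested. Genes near the lowest detected level have only bounds.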

Other observations

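Probes without a gene symbol were tested apart from the genes. Of 2381 detected probes of this kind, 0 were called between HRG and EGF in siC cells with 20 arrays and 7 with 19 (limma, Benjamini-Hochberg adjusted p under 0.05), and 107 had an unadjusted p under 0.05.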
